A study of Arabidopsis thaliana with 9 samples.

Results

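Leaf transcripts of a calpain overexpressing line of Arabidopsis thaliana were compared with those of a calpain null line on 6 of the 9 arrays of the study, 3 arrays for each line, chosen by their titles. The ATH1 array measures Arabidopsis transcripts with short oligonucleotide probes and holds 22810 probe sets. Of these, 14151 were tested, namely those with a signal of at least 17.6 on at least 3 of the 9 arrays, while 8595 lay below that filter and 64 were controls. Both lines are in the Col-0 background, and both carry the T-DNA knock-out in At1g55350, the DEK1 gene, so neither has the resident gene intact. They differ in the transgene. It is labelled ADEK1 calpain, with a source described as overexpressing, in one line, and ADEK1 calpain null in the second line. What null stands for is not stated in the labels, nor is the promoter of either transgene, the number of independent transformants behind each line, or whether the 3 replicates are separate plants, pots or pools. P-values therefore measure the spread between these arrays, which may be partly technical. The other 3 arrays are wild-type Col-0 leaves, whose signals are given below as reference levels with no test of their own. Leaves of all groups were taken at growth stage 1.14, from plants kept 3 days in the cold as seed, moved to soil after 7 days on plates and grown 6 to a pot at 21 °C in short days.

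DEK1 is the calpain of land plants, a large membrane protein whose cytosolic part is a calcium-dependent cysteine protease. It is needed for the formation and maintenance of the epidermis, and complete loss of the gene arrests Arabidopsis embryos. Leaf growth depends on the epidermis and on enzymes that loosen and remodel the wall, among them xyloglucan endotransglucosylase/hydrolases, endoglucanases, expansins and pectin-modifying enzymes. The comparison of the 2 lines asks what separates leaves that share the same knock-out and differ in the calpain transgene.

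No probe set was paired with DEK1 by the annotation, so neither the resident transcript nor the transgene was checked against the labels here. The deposited signals are on 1 common scale, with a median signal of 33.1 to 35.7 on the 9 arrays. Correlations of log2 signals were 0.965 to 0.978 among null arrays, 0.959 to 0.984 among overexpressing arrays and 0.947 to 0.972 between the lines. Overexpressing array 1 correlated better with each wild-type array (0.974 to 0.977) than with overexpressing arrays 2 and 3 (0.969 and 0.959). Null array 1 correlated better with wild-type arrays 2 and 3 than with null arrays 2 and 3 (0.965 and 0.968). Its correlation with wild-type array 1 was lower, at 0.964. The arrays numbered 1 therefore did not group clearly with their own line. The 25S ribosomal RNA control signal was lowest on the arrays numbered 1 of both lines, at 167 in the null line and 159.7 in the overexpressing line, against 208 to 384 on the other 7 arrays. Only 12 of the cell type markers listed for this work had a probe set. The 4 of 16 green leaf markers that did, which include Rubisco activase RCA, summed to 15589 to 19432 in the null line and 15126 to 15553 in the overexpressing line. The 4 of 9 markers listed for guard cells and the stomatal lineage summed to 467 to 556 and 533 to 585. STOMAGEN alone gave 289 to 351 and 332 to 385 of these sums, so they say little about the other markers. SPCH and STOMAGEN were higher in the overexpressing line, and MUTE and FMA (FAMA) were lower. The 1 of 8 root markers, PYK10, had 15.97 to 63.9 in the null line and 9.96 to 112 in the overexpressing line. The shoot apex marker CLV3 was at 1.66 or below in both lines. None of the tested markers passed the threshold, and markers of phloem, xylem, flower and senescing leaf were not analysed here.

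A small set of transcripts separated the lines. In limma's fit, 74 of 14151 tested probe sets differed at a Benjamini-Hochberg adjusted p under 0.05, or 0.523%. Of these, 35 (0.247%) were higher and 39 (0.276%) were lower in the overexpressing line, while 1507 probe sets had an unadjusted p under 0.05. The changes were moderate in size, with a median log2 difference of 1.104 among the rises and a median size of 1.13 among the falls, against a median size of 0.13 over all probe sets tested. The change was at least 2-fold for 20 rises and 23 falls, out of 195 tested probe sets (1.38%) that differed by that much. The smallest called difference was 1.48-fold for a rise and 1.36-fold for a fall. The median half-width of the 95% confidence interval was 0.35 on the log2 scale. That interval has no adjustment for the number of tests, so it is not the limit of detection. With 3 arrays a line, differences larger than the smallest called ones were missed too, since most of the 195 probe sets were not called. The 2 lines did not overlap for any of the 74 called probe sets. Over all tested probe sets, all overexpressing arrays lay above all null arrays for 6.26% and below them for 7.68%.

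**Figure D1:**
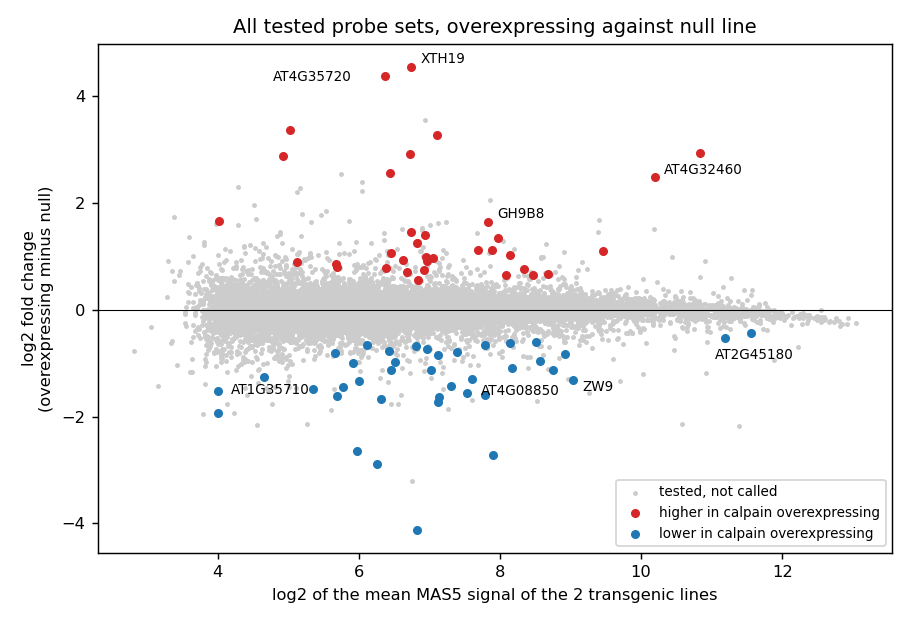
Each point is a tested probe set, placed by the log2 of the mean MAS5 signal of both lines (horizontal) and by the log2 fold change, overexpressing minus null (vertical); red points are the 35 called higher, blue points the 39 called lower and grey points those not called. The called probe sets span the range of signals, with XTH19 at 4.54 and AT4G32460 at 2.48 among the rises and ZW9 at -1.31 among the falls.

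Of the 74 called probe sets, 37 are annotated with a single gene (23 higher, 14 lower), 1 with several genes and 36 with none (11 higher, 25 lower). The 37 genes were sorted by role after the calls were known, and the annotation gives no roles for the genes that were not called, so these counts have no background to be read against. As sorted here, genes of the cell wall made up 9 of the 23 rises and 0 of the 14 falls. These 9 rises encode a xyloglucan enzyme, 3 family 9 endoglucanases and 5 proteins with roles in pectin or the wall matrix. Among them, XTH19 and AT1G62770 reached the filter only through the overexpressing line, so their being tested was not independent of the rise. Small secreted proteins made up 4 of the 14 falls and 0 of the 23 rises. The 0 wall genes among the falls and the 0 small secreted proteins among the rises depend on this sorting. It gave each gene a single class, so no gene of the wall class could also count as small secreted. It placed the glycine-rich AT2G05540 and AT5G44820, of a nucleotide-diphospho-sugar transferase family, outside the wall class. Signalling genes fell on both sides, with 2 rises and 3 falls. In leaf RNA, fewer cells of a type and less RNA per cell cannot be told apart, for these and all later values.

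The largest rise belonged to XTH19 (AT4G30290), a xyloglucan endotransglucosylase/hydrolase, which cuts and rejoins the xyloglucan chains that tether cellulose. On the arrays numbered 1, 2 and 3, its signals were 0.939, 2.68 and 4.25 in the null line and 36.2, 157 and 443 in the overexpressing line. The null line was below the filter signal of 17.6 on every array, as were the wild-type arrays at 0.513, 5.28 and 1.32. XTH19 reached the filter only through the overexpressing line, so some difference between the lines was built into its being tested. The log2 difference was 4.54 (SE 0.68, adjusted p = 0.0156), and since it is measured on log2(signal + 3.63), its size depends on the added offset. Without the filter, its adjusted p = 0.0386 in limma's fit. With an offset of 1 the difference was 5.36, and with an offset of 16 it was 3.11. The overexpressing arrays themselves spanned 12.2-fold. XTH19 missed the threshold in 4 of the 20 alternative settings it was tested in, with an adjusted p of up to 0.0572. Of these 4 settings, 3 left out 1 array, namely null array 2 (adjusted p = 0.0511), null array 3 (adjusted p = 0.0522) or overexpressing array 2 (adjusted p = 0.0563).

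The 3 endoglucanase genes of family 9, enzymes that hydrolyse glucan chains in the wall, were all higher on every overexpressing array than on any null array. GH9B8 (AT2G32990) had 97.0, 118 and 101.2 on the null arrays and 245, 339.8 and 462 on the overexpressing arrays, a log2 difference of 1.65 (SE 0.24, adjusted p = 0.0114). GH9C2 (AT1G64390) had 440.2, 445 and 428 against 696, 983 and 1233, a difference of 1.104 (SE 0.20, adjusted p = 0.0357). GH9B13 (AT4G02290) had 76.0, 104 and 76.6 against 129.9, 159.6 and 205, a difference of 0.91 (SE 0.17, adjusted p = 0.045). In all 3 genes the null arrays overlapped the wild-type range, and the overexpressing arrays did not. The lowest overexpressing value was on the array numbered 1 each time. With the 3 arrays numbered 1 left out, the log2 differences were 1.82, 1.33 and 0.99, each still past the threshold. This cut was chosen after the data were seen and raised the calls over all tested probe sets from 74 to 373. Other settings ended calls. GH9C2 and GH9B13 were each called in 11 of 21 alternatives, with an adjusted p of up to 0.149 and 0.176, the highest of both without null array 3, and GH9B8 was called in 20 of 21.

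Of the genes linked to pectin, AT4G32460, which encodes a DUF642 protein of the wall, is described first. It went from 227, 462 and 338 on the null arrays to 1053, 2168 and 2765 on the overexpressing arrays, a log2 difference of 2.48 (SE 0.32, adjusted p = 0.00594). The lowest overexpressing array was still above the highest null array, and wild-type signals of 222 to 319 overlapped those of the null line. AT1G62770, a protein of the pectin methylesterase inhibitor type, had 11.8, 16.95 and 24.5 against 64.6, 242 and 472 (log2 difference 3.27, SE 0.54, adjusted p = 0.0258). Its overexpressing signals spanned 7.31-fold, array 1 being the lowest and array 3 the highest, and its call was lost in 9 of 21 alternatives. AT1G48100, of the polygalacturonase family whose members cut pectin backbones, had 81.4, 64.8 and 52.0 against 157, 155 and 169 (log2 difference 1.25, SE 0.15, adjusted p = 0.00399). Here the 3 overexpressing arrays were within 1.095-fold of each other, and the call held under all 21 alternatives. AT1G67750, of the pectate lyase family, had 319, 299.8 and 324 against 474, 554 and 488, a difference of 0.68 (adjusted p = 0.0233) called in 14 of 21 alternatives. The last wall gene, AT5G15740, encodes a rhamnosyltransferase that builds the backbone of the pectin rhamnogalacturonan I. Its signals were 81.0, 105 and 86.0 in the null line and 138, 147 and 175 in the overexpressing line (0.74, adjusted p = 0.0357), called in 11 of 21 alternatives.

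Outside the wall, the rises with the largest log2 difference were in genes with very low signals in the null line. AT4G35720, for which no role is given here, had 1.35, 6.28 and 2.75 on the null arrays and 60.8, 155 and 271 on the overexpressing arrays (log2 difference 4.38, SE 0.46, adjusted p = 0.00186). AT5G24240, which encodes a phosphatidylinositol 4-kinase of the gamma type, had 0.859, 8.82 and 0.828 against 53.6, 59.6 and 71.0 (3.36, SE 0.41, adjusted p = 0.00399). The null signals of both genes lay below the filter signal, as did those of wild type, so both were tested only because the overexpressing line was high, and the size of their differences depends on the offset. Without the filter, adjusted p = 0.00927 for AT4G35720 and 0.0122 for AT5G24240. In all, 7 of the 35 rises and 3 of the 39 falls reached the filter only through the line in which they were high, among 361 and 389 tested probe sets that did so through the overexpressing or the null line. The 5 of these rises with a single gene were XTH19, AT1G62770, AT4G35720, AT5G24240 and AT3G51410, and the 1 such fall was AT2G05540. The next 3 genes had signals above the filter on every array. AT5G12110, a subunit of translation elongation factor 1B, had 179, 125 and 122 against 388, 359 and 337 (1.35, SE 0.17, adjusted p = 0.00532). Unlike the wall genes, its highest overexpressing value was on the array numbered 1. AT5G06270, from a family of small transcriptional repressors, had 133, 121 and 135 against 295, 297 and 259.7 (1.11, SE 0.12, adjusted p = 0.00186). AT3G21950, a methyltransferase of the SABATH family, had 192, 183 and 181 against 407, 337 and 401 (1.02, SE 0.13, adjusted p = 0.00532). These last 3 genes had wild-type signals that overlapped the null arrays only.

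**Figure D2:**
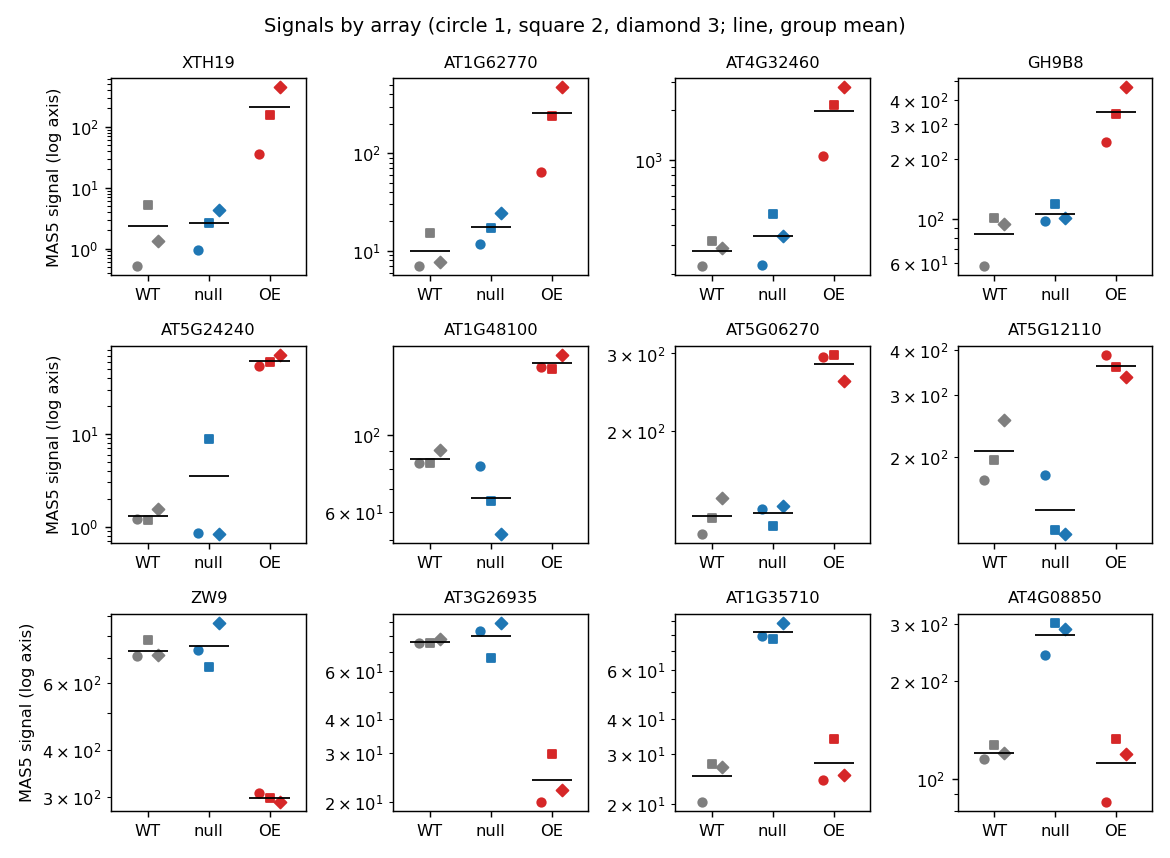
MAS5 signals (log axis) of 12 called genes on each array, with wild type (WT) in grey, the null line in blue and the overexpressing line (OE) in red; circles, squares and diamonds are the arrays numbered 1, 2 and 3, and lines are group means. XTH19 spans 36.2 to 443 on the overexpressing arrays, while AT5G06270 stays between 259.7 and 297, and AT1G35710 and AT4G08850 are high in the null line only.

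The other named rises were smaller or less steady. Among genes of metabolism, AT1G07440, a short-chain dehydrogenase, had a log2 difference of 1.39 (adjusted p = 0.0282), the aldose 1-epimerase type gene AT5G14500 one of 0.85 (adjusted p = 0.0389) and the branched-chain aminotransferase gene AT1G50110 one of 0.71 (adjusted p = 0.0233). AT4G38950, which encodes a kinesin, a motor that moves along microtubules, had 72.6, 56.3 and 71.1 against 108, 147 and 136 (0.93, adjusted p = 0.0271). The protein kinase gene AT1G80640 rose by 0.65 (adjusted p = 0.045), and the transporter gene AT1G68570, named NPF3.1, by 0.56 (adjusted p = 0.0455). NPF3.1 was the smallest called rise, with null signals from 87.1 to 95.4 and overexpressing signals from 134 to 142. AT3G51410, AT5G49120 and AT1G54120, with no role given here, rose by 2.87, 0.90 and 0.79, and AT3G51410 had a null mean of 4.45, below the filter.

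Among the falls, ZW9 (AT1G58270), a protein with a TRAF-like domain, had the smallest adjusted p of any named gene. Its signals were 733, 661 and 864 in the null line and 308, 299 and 292 in the overexpressing line, a log2 difference of -1.31 (SE 0.11, adjusted p = 0.000557). The overexpressing arrays differed by only 1.06-fold, and the wild-type arrays, at 707, 778 and 710.0, lay within the null range. AT3G26935, of the DHHC family of protein acyltransferases that attach fatty acids to proteins, had 83.4, 66.9 and 89.4 against 19.95, 29.7 and 22.1 (-1.61, SE 0.16, adjusted p = 0.00185). Its wild-type signals of 75.5 to 78.0 were likewise on the null side.

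A different pattern was seen in 2 genes for leucine-rich repeat receptor kinases, cell surface proteins of a family that senses peptides and wall or microbial signals. AT4G08850 had 240.4, 301 and 289 on the null arrays and 85.1, 133 and 119 on the overexpressing arrays (-1.29, SE 0.16, adjusted p = 0.00413). AT1G35710 had 79.5, 77.1 and 88.2 against 24.3, 34.1 and 25.4 (-1.44, SE 0.17, adjusted p = 0.00399). For both, it was the null line that stood away from wild type, whose signals of 115 to 127 for AT4G08850 and 20.3 to 27.8 for AT1G35710 overlapped the overexpressing arrays and none of the null arrays. Both receptor kinase genes, ZW9 and AT3G26935 kept their calls under all 21 alternatives, and they were the only 4 of the 14 single-gene falls that did.

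The 4 small secreted proteins among the falls were 2 lipid-transfer-like proteins, a defensin-like protein and a glycine-rich protein. AT2G45180, of the lipid-transfer-like type, had 3576, 3286 and 3594 in the null line and 2604, 2613 and 2473 in the overexpressing line, a log2 difference of -0.44 (SE 0.08, adjusted p = 0.0353). The defensin-like AT3G05730 had 2893, 2629 and 2802 against 2170.4, 1827 and 1757 (-0.54, adjusted p = 0.0355). For AT2G45180 the wild-type arrays lay between the lines, at 3124 to 3209.9. AT1G62510, also lipid-transfer-like, fell by 1.12 (adjusted p = 0.0244). The glycine-rich AT2G05540 had the largest fall of the 4, by 1.94 (adjusted p = 0.0181). Its overexpressing signals of 2.76 to 6.07 lay below the filter, as did the overexpressing means of 6 falls in all.

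Of the remaining falls with a single gene, AT5G44820, of a nucleotide-diphospho-sugar transferase family, had 40.8, 30.6 and 39.9 against 14.7, 15.9 and 10.1 (-1.25, adjusted p = 0.0271). AT5G65380, a MATE-type transporter, fell by 0.84 (adjusted p = 0.0293), and AT2G30600, a BTB/POZ domain protein, by 0.79 (adjusted p = 0.0347). AT2G30930, AT1G78170 and AT4G22560, with no role given here, fell by 1.68, 0.77 and 0.67. AT2G30930 was the 1 gene among the 37 called whose wild-type arrays overlapped both lines, since wild type alone ranged from 41.1 to 112.

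**Figure D3:**
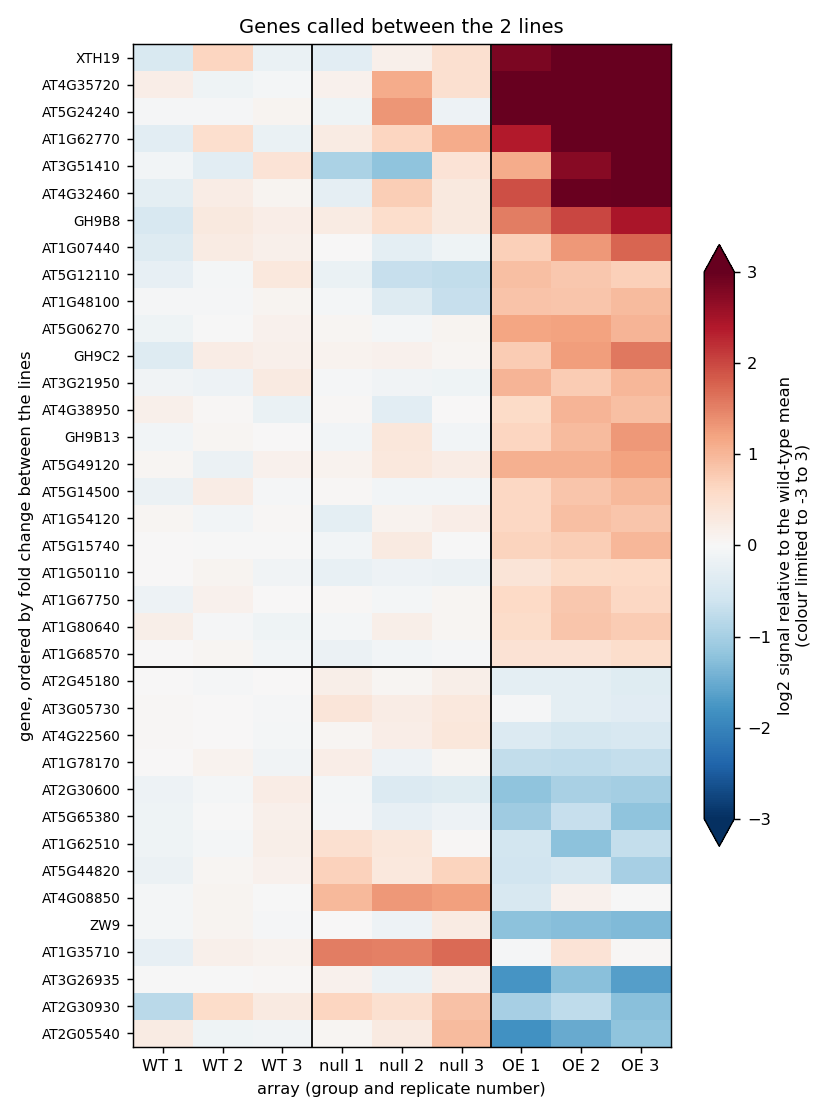
Heat map of the 37 called single-gene probe sets (rows, ordered by fold change between the lines) on the 9 arrays (columns), coloured by log2 signal relative to the wild-type mean, with colours limited to -3 to 3. The overexpressing columns are red for all 23 rises, while the null columns are near white for most of them and red for AT4G08850 and AT1G35710 among the falls.

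Wild-type levels were set beside those of both lines for all called probe sets. Wild type enters the fit only through the shared estimate of the spread, and these positions are a description with no test. The same positions are not given for all tested probe sets, so the counts below have no background to be read against. For 31 of the 35 rises the wild-type mean was nearer the null line, and for 4 it was nearer the overexpressing line. The range of the wild-type arrays overlapped only the null arrays for 28 rises, only the overexpressing arrays for 1 and neither for 6. Of those 6, wild type lay between the lines in 5. The falls were more evenly divided. For 24 of the 39 falls the wild-type mean was nearer the null line, and for 15 it was nearer the overexpressing line. The ranges overlapped only the null arrays for 15 falls, only the overexpressing arrays for 10, neither for 13 and both for 1. In 11 of those 13, wild type lay between the lines.

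**Figure D4:**
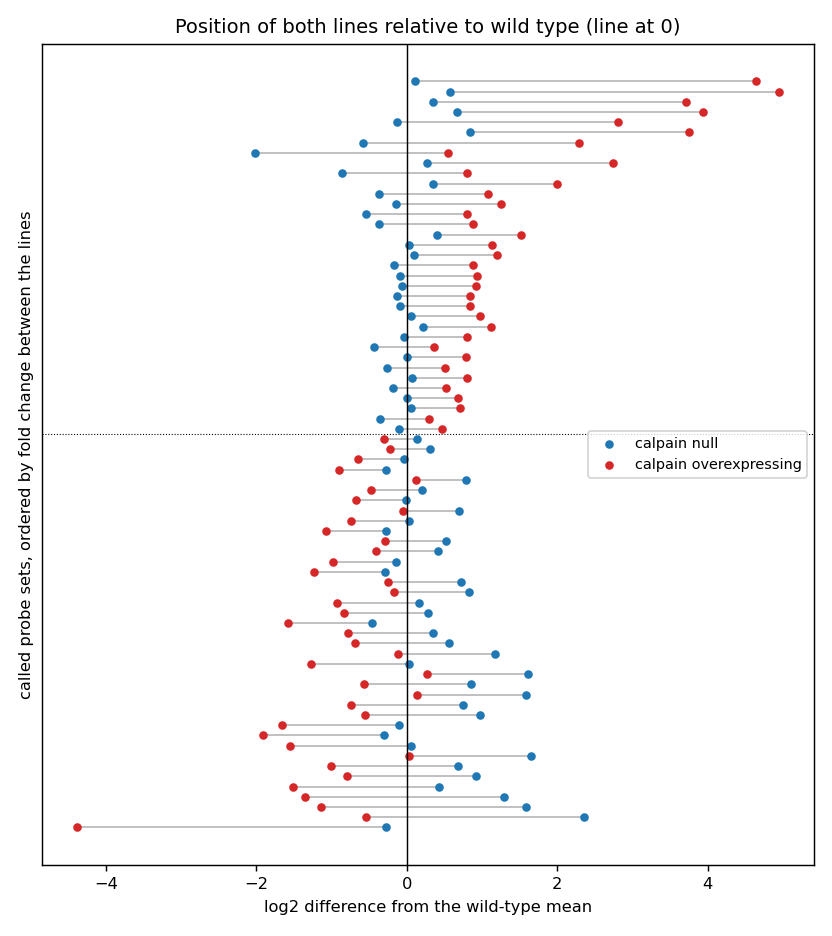
For each of the 74 called probe sets (rows, ordered by fold change between the lines), the log2 difference of the null mean (blue) and of the overexpressing mean (red) from the wild-type mean, which is the vertical line at 0; the dotted line parts the 35 rises from the 39 falls. Blue points cluster at 0 for most rises, whereas among the falls 15 red points are nearer to 0 than the blue ones.

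Of the 36 called probe sets with no gene listed, 2 rises and 2 falls with the smallest p are given by their identifiers. The rise of 252607_at, from 13.6, 22.9 and 27.2 to 98.3, 235 and 241, came to 2.91 on the log2 scale (SE 0.33, adjusted p = 0.003). That of 248248_at, from 269, 231 and 218 to 394, 378 and 449, came to 0.76 (SE 0.13, adjusted p = 0.0258). The largest fall of all was that of 245576_at, from 257, 172 and 222 to 2.64, 11.4 and 17.4, a log2 difference of -4.12 (SE 0.35, adjusted p = 0.000557). Wild-type leaves had 262 ± 50.1 (SD, n = 3) for 245576_at, so the overexpressing line alone was low. The opposite held for 266070_at, with 98.9, 215 and 101.5 in the null line, 16.02, 13.8 and 13.2 in the overexpressing line and 22.9 ± 6.10 (SD, n = 3) in wild type. Its log2 difference was -2.89 (SE 0.28, adjusted p = 0.00151). By these signals, 252607_at reached the filter only through the overexpressing line and 266070_at only through the null line. Some difference between the lines was therefore built into the testing of both.

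A further probe set with no gene listed, 259646_at, was singled out after its values were seen, because both lines stood far from wild type and close to each other. Its signals were 1992.5, 2259 and 2272 on the null arrays and 1654, 1909 and 1677 on the overexpressing arrays, against 113 ± 8.12 (SD, n = 3) in wild type. The null arrays were all above the overexpressing arrays, yet the difference between the lines was -0.32 on the log2 scale (95% confidence interval -0.54 to -0.09) and did not pass the test (adjusted p = 0.257). It was called in 0 of 21 alternatives, and which transcript it reads was not determined.

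The 37 called genes were spread over the genome, with 13, 5, 4, 7 and 8 on chromosomes 1 to 5, where 1977, 1119, 1583, 1120 and 1815 single-gene probe sets were tested. No 2 of them were direct neighbours, and 0 lay within 10 protein-coding genes of another.

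Pathway lists matched by gene symbol added 0 calls to the wall genes already described. The lists held 257 distinct tested probe sets, of which 4 (1.56%) were called higher, namely XTH19 and the 3 endoglucanases, and 0 were called lower, by limma at an adjusted p under 0.05. The background over all tested probe sets was 0.523%, and the lists were drawn up with results of these data known, so the 4 calls are not independent evidence for their lists. Family 9 endoglucanases had 3 of 6 tested members called and a median log2 difference of 0.62, against -0.01 over all probe sets tested. Xyloglucan enzymes had 1 of 4 called and a median of 0.15. That 1 was XTH19, which was tested only because the overexpressing line was high. XTH32, another enzyme of that family, had 483, 435 and 423 in the null line and 581, 666 and 664 in the overexpressing line (0.51, adjusted p = 0.0685).

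Expansins, which loosen the wall without cutting it, had 0 of 9 members called and a median log2 difference of 0.04. For EXPA4, with 177, 247 and 214 in the null line and 323, 337 and 325 in the overexpressing line, the lines did not overlap and the difference of 0.63 narrowly missed the threshold (adjusted p = 0.052). EXPB3 had 336, 175 and 285 against 482, 500.4 and 526 (0.96, adjusted p = 0.0685). Both lay above the wild-type level in the overexpressing line, and both passed the threshold when the 3 arrays numbered 1 were left out (adjusted p = 0.0448 and 0.0164). That cut was chosen after the data were seen, and 2.64% of all tested probe sets were called under it. The 4 tested members of the pectin enzyme list, which the symbols limit to pectin methylesterases and a galacturonosyltransferase, all had slightly lower signals in the overexpressing line (median -0.16) and 0 were called. Synthesis of cellulose and hemicellulose had 0 of 10 called, with a median of -0.10.

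The 7 tested auxin genes had the lowest median of the lists with at least 5 members, -0.67, with 0 called, although signals were lower in the overexpressing line for only 4 of the 7 and higher for 3. The 3 described here are among the 4 that were lower. IAA29, an auxin-induced repressor of auxin response, had 17.9, 138 and 153 on the null arrays and 18.3, 68.3 and 60.1 on the overexpressing arrays (-0.75, adjusted p = 0.776). Its wild-type signals of 9.21, 4.05 and 8.77 lay below those of both lines. HAT2, a homeobox gene that auxin induces, had 48.7, 114 and 103 against 37.6, 65.5 and 53.7 (-0.67, adjusted p = 0.431). Wild-type HAT2 signals of 34.25, 49.7 and 48.1 overlapped both lines. In both genes and both lines the array numbered 1 was lowest, so the lines overlapped. With the 3 arrays numbered 1 left out, both passed the threshold as lower in the overexpressing line, at -1.14 (adjusted p = 0.0411) for IAA29 and -0.83 (adjusted p = 0.0276) for HAT2. Since that cut was chosen after the data were seen and 2.64% of all tested probe sets were called under it, these are not independent evidence. WES1, which conjugates auxin to amino acids, had 45.4, 84.9 and 152 against 29.6, 42.7 and 66.1 (-0.88, adjusted p = 0.393). Its wild-type signals of 27.3, 29.6 and 33.4 overlapped the overexpressing arrays and none of the null arrays.

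The 6 tested flavonoid genes had a median of 0.58 with 0 called. CHIL, a chalcone isomerase-like protein, had 82.8, 40.8 and 34.4 in the null line and 114, 82.9 and 116 in the overexpressing line (1.02, adjusted p = 0.124). UF3GT, a glycosyltransferase acting on anthocyanins, had 5.64, 7.27 and 5.81 against 63.9, 10.3 and 23.8 (1.59, adjusted p = 0.158), and wild-type signals of 28.02 to 33.2. The spread among the overexpressing arrays of UF3GT was 6.18-fold, and array 1 was the highest of them.

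Lists related to general leaf function had medians near or slightly below that of all probe sets. Photosynthesis genes numbered 37, with a median of -0.01 and 0 called. Of these, LHCB4.3, an antenna protein, had 74.9, 57.7 and 62.5 in the null line and 108, 161 and 115 in the overexpressing line (0.93, adjusted p = 0.107). The lines did not overlap for LHCB4.3. It passed the threshold with the 3 arrays numbered 1 left out (adjusted p = 0.0223), as did 2.64% of all tested probe sets under that cut, chosen after the data were seen. Turning to translation, the 17 genes of the ribosome and translation list had a median of -0.07 and 0 called. Among cell cycle genes, 0 of 5 were called and all 5 had lower signals in the overexpressing line (median -0.19), led by the mitotic kinase genes AUR1 at -0.39 (adjusted p = 0.593) and AUR2 at -0.41 (adjusted p = 0.696). Of 12 secretion genes, 11 had lower signals in the overexpressing line (median -0.16) and 0 were called, the exocyst subunit SEC15A being at -0.38 (adjusted p = 0.393). The median over all tested probe sets was -0.01. The share of all tested probe sets with lower signals is not given, so counts by direction in these and the other lists have no background. They were not tested. The 21 tested proteases had a median of -0.01 and 0 called. The subtilases SBT1.3 and ATSBT5.2 lay on opposite sides, at -0.54 (adjusted p = 0.0976) and 0.76 (adjusted p = 0.206).

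Regulators on the symbol-matched list for the epidermis, the tissue layer that DEK1 is known for, did not pass the test. The called genes outside that list were not sorted for roles in the epidermis. Of the 6 tested members of that list, 0 were called and the median was -0.08. The stomatal lineage factor SPCH, which starts the lineage, had 110.0, 106 and 90.9 in the null line and 134, 138 and 112 in the overexpressing line (0.31, adjusted p = 0.407). MUTE, which ends its divisions, had 27.9, 25.9 and 33.03 against 15.8, 21.1 and 23.6 (-0.46, adjusted p = 0.433). FMA (FAMA), which acts in guard cell formation, had 67.3, 52.3 and 54.1 against 51.0, 42.1 and 37.0 (-0.39, adjusted p = 0.405). TRY, a repressor of trichome formation named here after its values were seen, had 14.7, 14.8 and 10.7 against 28.1, 20.5 and 17.2 (0.57, adjusted p = 0.476). The lines did not overlap for these 4 members, with SPCH and TRY higher and MUTE and FMA lower in the overexpressing line, where 6.26% and 7.68% of all tested probe sets were so placed.

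Defence-related lists had 0 calls, but they were matched by symbol. The called receptor kinase genes AT4G08850 and AT1G35710 and the defensin-like AT3G05730, all lower in the overexpressing line, were on none of the lists. The salicylic acid and jasmonate list had a median of -0.54 over 5 tested genes, and WRKY factors one of -0.25 over 5. EFR, a receptor kinase for a bacterial peptide, had 36.2, 29.3 and 29.5 in the null line and 14.5, 20.9 and 10.8 in the overexpressing line (-0.92, adjusted p = 0.152), and the lines did not overlap. ARL, an ARGOS-like gene that promotes organ growth, had 27.2, 279.6 and 235 against 148, 424 and 469 (1.29, adjusted p = 0.57). In both lines its array numbered 1 was far below the other 2, and the lines overlapped.

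The spread within both lines was uneven across the called probe sets. The highest overexpressing array was at least 2-fold above the lowest for 9 of the 35 rises and 6 of the 39 falls, against 7.44% of all tested probe sets. The null arrays differed by that much for 10 of the 35 rises and 5 of the 39 falls, so this spread was not particular to the overexpressing line. Over all tested probe sets, the median ratio of highest to lowest array was 1.28 in either line. Array 1 was the lowest of the overexpressing arrays in 26 of the 35 rises, against 39.5% over all tested probe sets, and array 3 was the highest in 25. Overexpressing array 1 also had the low 25S ribosomal RNA control signal given above, whose part in the result was not tested.

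The number of calls depended on single arrays. It rose from 74 to 172 without overexpressing array 1, and 70 of the 74 were among them. It fell to 43 without overexpressing array 2, to 26 without overexpressing array 3, to 34 without null array 2 and to 25 without null array 3. Leaving out wild-type array 2 or 3, which alters only the shared spread and the degrees of freedom, gave 46 and 35. With all 3 arrays numbered 1 left out, a cut chosen after the data were seen, 373 probe sets (2.64%) were called. Of these, 217 were higher and 156 lower, and 68 of the 74 were among them. Of the 257 probe sets in the lists, 16 were then called. Of the 74, 18 kept their call under each of the 21 alternatives in which they were tested, 9 higher and 9 lower. Each of the others lost its call in at least 1. The 11 of the 18 with a single gene were AT4G35720, AT5G24240, AT4G32460, AT5G12110, AT1G48100, AT5G06270 and AT3G21950 among the rises and ZW9, AT3G26935, AT1G35710 and AT4G08850 among the falls. AT5G24240 was tested in 20 of the 21, since it did not reach the stricter filter.

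**Figure D5:**
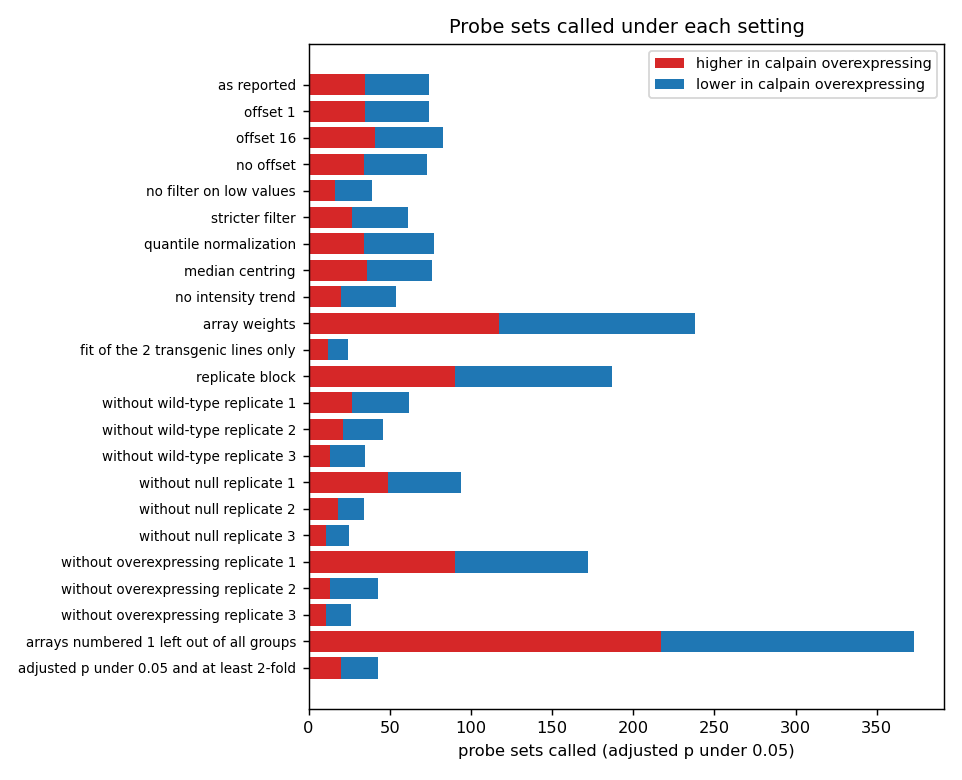
Number of probe sets called between the lines under the reported setting and each alternative, with calls higher in the overexpressing line in red and lower in blue. The reported setting gives 35 and 39; leaving out the 3 arrays numbered 1 gives 217 and 156, and leaving out null array 3 gives 11 and 14.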

How the data were processed

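Per the labels' protocols, leaf total RNA was prepared with a Qiagen kit, labelled with biotin in 1 cycle and hybridised to ATH1 arrays. The deposited values are intensity signals on a linear scale, which the authors made with MAS5 in GCOS per the submitters' processing notes. All 9 arrays had the same mean, 100.011, once 2% of the signals were trimmed from either end, so differences are relative to the rest of each array. The number of arrays limits the precision.

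Signals were taken as log2(signal + 3.63), the offset being the 20th percentile of the table. Testing was limited to probe sets with a signal of 17.6 (the 40th percentile) or more on 3 or more arrays. Beside 64 control probe sets, 8595 were not tested. limma 3.58.1 (R 4.3.3) was fitted to all 9 arrays with 3 group means and an intensity trend. Tests of overexpressing minus null were two-sided, with Benjamini-Hochberg adjustment over all tested probe sets and calls at an adjusted p under 0.05. In simulated data with 100 probe sets changed at each size, the fit recovered 75 at 2-fold and 95 at 4-fold among 14151, with 10 false calls. Figures were drawn with matplotlib 3.10.9.

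By the platform annotation, 13513 probe sets had 1 gene, 503 had several and 8794 had none. Of those with 1 gene, 13436 matched the TAIR10.1 RefSeq table. Among tested probe sets, 7710 had 1 gene. Lists of 36 pathways were matched by symbol, and 16 matches were dropped because the symbol was another gene's name. The named genes are every called single-gene probe set, the 2 rises and 2 falls of smallest p without a listed gene and members of smallest p of the lists, with TRY added. The comparison, the lists and their members were chosen with earlier results of these data known, and the grouping by role was made after the calls. Alternatives covered the offset, the filter, normalization, trend, array weights, the arrays fitted, a replicate block and single arrays left out.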

Additional observations from a re-analysis of the deposited data

How the results depend on the processing

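Against 74 probe sets called, a replicate block gave 187 (90 higher, 97 lower), all 74 among them. The numbers were not taken as pairs: deviations of same-numbered arrays of the lines correlated at 0.37, 0.06 and 0.09, and array 2 of the overexpressing line correlated best with null array 3 and array 3 with null array 2. Array weights gave 238, no filter on low values 39, a fit of the 2 transgenic lines only 24, and a limit of at least 2-fold 43. Leaving out the arrays numbered 1 of all groups, chosen after seeing the data, gave 373. Leaving out single arrays gave 25 to 172. The no-filter setting tests more probe sets and the fits of fewer arrays have fewer degrees of freedom; for the other settings the cause was not tested. Offsets of 1, 16 or none gave 74, 83 and 73, a stricter filter 61, quantile normalization 77, median centring 76 and no intensity trend 54. No scaling moved the median of all probe sets by over 0.1 on the log2 scale. For 82 genes and probe sets, 41 of them called, 1444 alternative values kept their side of the threshold, 227 lost it and 29 gained it. None changed sign, but list members with differences near 0 were not among the 82. Values near or below the filter signal of 17.6 limit the fold changes given.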
